A study of Mus with 12 samples.

Results

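The genes described here are 30 genes of cell division and genome upkeep, chosen by name for their function in mitosis, DNA replication, or mismatch and homologous repair. All 30 were found by symbol among the 770 genes of the nCounter mouse IO360 panel, which counts RNA molecules with barcoded probes and needs no amplification. Total RNA was taken from fixed and paraffin-embedded (FFPE) pieces of liver tumour from 12 mice with MYC-HCC, hepatocellular carcinoma tied by its name to the oncogene Myc. The 4 groups were the combination of anti PDL1 and anti CTLA4, anti PDL1 alone, anti CTLA4 alone and control IgG, with 3 mice in each, and every group carried the same tumour model. The way MYC was expressed, the strain, sex and age of the mice, and the antibody clones, doses and times, are not given in the sources used.

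A dividing cell first commits to copying its DNA, then builds nucleotides and replicates, restores chromatin and DNA methylation on the new strands, repairs breaks and mismatches, and at last separates its chromosomes and divides. Many genes of this programme are read mostly in cycling cells, so their RNA is commonly used as a sign of proliferation in tumours, whereas mature hepatocytes rarely divide. PDL1 and CTLA4 are brakes on T cells, and antibodies against them are given to release those brakes. In RNA from whole tumour pieces, fewer dividing cells and less of these RNAs per cell cannot be told apart.

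By role, 11 of the genes act in mitosis and cytokinesis, 6 in entry to S phase, nucleotide supply and replication, 4 in chromatin and DNA methylation upkeep, and 9 in DNA repair. Values are normalized counts, with low genes listed at a floor of 20; at the floor a gene may hold up to 20 times the scaling factor of its library where that factor is above 1, which reached 52.5 normalized counts. Levels of different genes were not compared, because each probe binds with its own efficiency. Of the 30, 21 were above the floor in all 12 libraries and 9 were listed at it in at least 1 library, so the deposited values kept a number for every member. A value above the floor can still lie within the background of its library: in anti-PDL1 mouse 2, Anln, Kif2c, Exo1 and Ube2t were not above its highest negative control probe (63.0 normalized counts), and in anti-CTLA4 mouse 2 Mki67 was not (57.7). With the genes at the floor, 8 of 30 members in anti-PDL1 mouse 2 and 10 of 30 in anti-CTLA4 mouse 2 have only an upper limit.

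No member passed the test in any of the 6 comparisons between groups, where 0% to 2.99% of the panel did, while their mean level differed widely between mice that had received the same antibody. The mean log2 level of the 30 genes was 9.14, 8.54 and 8.97 in the combination mice, 9.25, 6.97 and 8.83 in the anti-PDL1 mice, 8.04, 6.38 and 9.003 in the anti-CTLA4 mice, and 8.94, 8.99 and 8.80 in the IgG mice. Anti-CTLA4 mouse 2 and anti-PDL1 mouse 2 were far below all the others, anti-CTLA4 mouse 1 was lower than every IgG mouse by a smaller margin and combination mouse 2 by a smaller one still, and the other antibody-treated mice lay near the IgG mice. The group means were 8.88 ± 0.31 for the combination, 8.35 ± 1.21 for anti-PDL1, 7.81 ± 1.33 for anti-CTLA4 and 8.91 ± 0.10 for IgG (SD, n = 3 each).

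**Figure D1:**
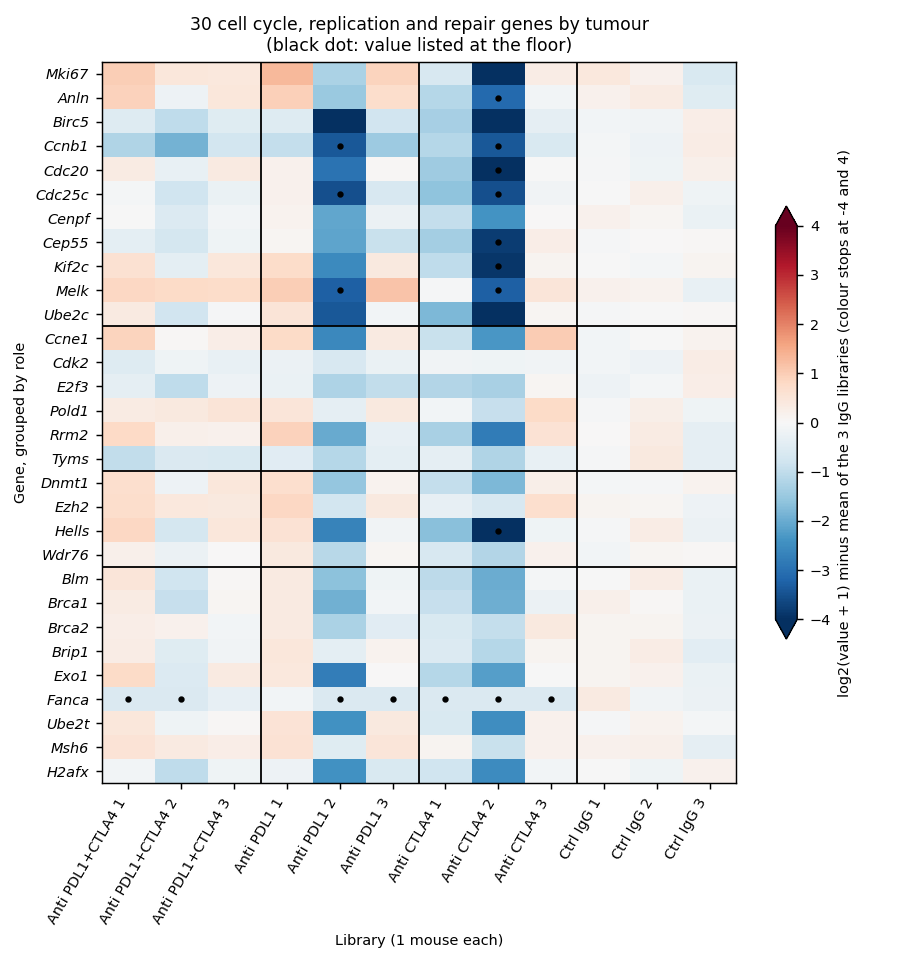
Heat map of the 30 genes (rows, ordered by role) in the 12 libraries (columns, 3 mice per group), with colour for log2(value + 1) minus the mean of the 3 IgG mice. The columns of anti-CTLA4 mouse 2 and anti-PDL1 mouse 2 are low in nearly every row, and the colour scale stops at 4 log2 units in either direction.

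The spread between mice was wide in both single-antibody groups. Among anti-PDL1 mice 20 of the 30 genes, and among anti-CTLA4 mice 18 of 30, had an SD above 1 log2 unit, against 0 of 30 among combination mice and 0 of 30 among IgG mice. Over the panel, 217 and 151 of 770 genes had such an SD in the anti-PDL1 and the anti-CTLA4 mice, with 39 in the combination and 3 in the IgG mice. In anti-CTLA4 mouse 2 and in anti-PDL1 mouse 2, 29 of the 30 genes were below every IgG mouse, where 31.2% and 25.5% of the panel were. Anti-CTLA4 mouse 1 had 26 of the 30 below every IgG mouse, against 23.6% of the panel, and combination mouse 2 had 20 of 30, against 26.4%. Combination mouse 1 and anti-PDL1 mouse 1 stood on the other side, each with 20 of the 30 genes above every IgG mouse, against 34.5% and 23.5% of the panel.

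The libraries themselves differed in depth and make-up. Recovered raw counts totalled 439149 to 864464 per library. The scaling factor was 0.73, 1.79 and 0.99 in the combination libraries, 0.66, 2.10 and 1.23 in the anti-PDL1 libraries, 2.25, 2.62 and 0.94 in the anti-CTLA4 libraries, and 0.81, 0.56 and 1.10 in the IgG libraries, so that the libraries low in these genes were also scaled up most. Of a list of 15 hepatocyte genes, 5 were measured, among them Apoe, Arg1, Fbp1 and Serpina1a, and their summed level spanned 61693 to 196568 normalized counts in the combination, 49827 to 605414 in anti-PDL1, 44267 to 480867 in anti-CTLA4 and 37935 to 53665 in IgG mice; none of the 5 was at the floor in any library. Their mean log2 level was 11.75, 13.45 and 11.96 in the combination mice, 11.24, 14.69 and 12.50 in the anti-PDL1 mice, 13.96, 14.80 and 11.52 in the anti-CTLA4 mice, and 12.01, 11.41 and 11.65 in the IgG mice, highest in the same mice in which the division genes were lowest. The part that hepatocyte content or scaling plays in the differences below was not tested, beyond the fit with the hepatocyte mean as a covariate given with the comparisons with IgG and with the interaction.

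**Figure D2:**
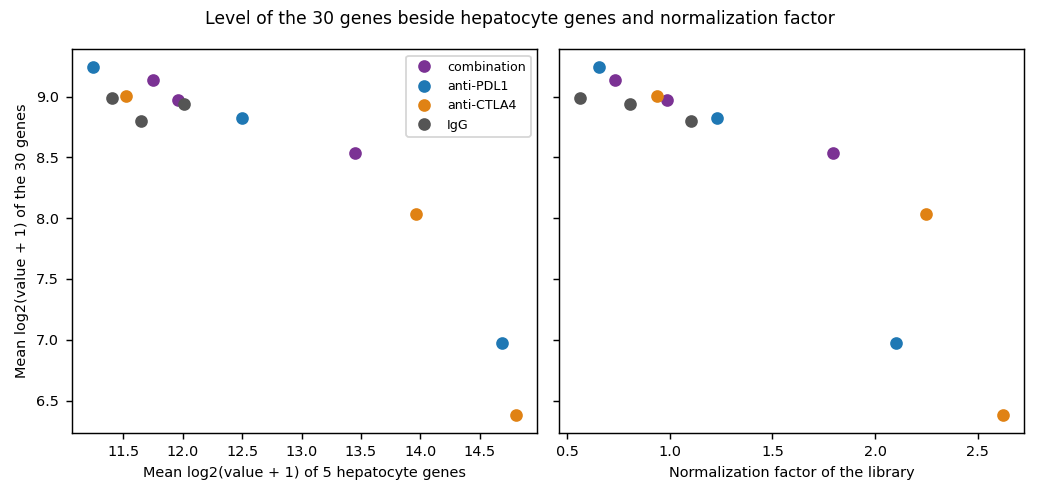
Mean log2 level of the 30 genes in each library (vertical axis) against the mean log2 level of 5 hepatocyte genes (left) and against the scaling factor of the library (right), with 1 point per mouse coloured by group. The points lowest on the vertical axis, anti-CTLA4 mouse 2 at 6.38 and anti-PDL1 mouse 2 at 6.97, lie farthest to the right for the hepatocyte genes, at 14.80 and 14.69.

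Other cell types varied as well. The summed level of 11 measured macrophage genes of 12 spanned 10510 to 12512 in the combination, 7721 to 20753 in anti-PDL1, 8661 to 15201 in anti-CTLA4 and 5772 to 8269 in IgG mice. The sum of 3 measured endothelial genes of 7 spanned 875 to 1208 in the combination, 739.7 to 2387 in anti-PDL1, 858 to 1714 in anti-CTLA4 and 469.5 to 610.5 in IgG mice. T cell genes, 10 of 10 measured, were low throughout, with sums of 404 to 465 in the combination, 314 to 584 in anti-PDL1, 347 to 512 in anti-CTLA4 and 362 to 482 in IgG mice. In none of these 3 lists was a gene at the floor in all 12 libraries, and their part in the results was not tested.

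The mitotic genes varied most. Their log2 span between the lowest and the highest mouse had a median of 4.38, against 1.62 for S-phase entry and replication, 2.03 for chromatin upkeep, 2.29 for DNA repair and 1.70 for all panel genes. Part of each span rests on listed floor values, since 7 of the 11 mitotic genes were at the floor in anti-CTLA4 mouse 2 and 3 of 11 in anti-PDL1 mouse 2. With values at the floor or within background raised to the higher of the floor limit and the highest negative probe of the library, the median mitotic gene was at least 5.34-fold below the IgG mean in anti-CTLA4 mouse 2 and at least 4.26-fold below it in anti-PDL1 mouse 2. The medians in anti-CTLA4 mouse 2, taken the same way, were 2.42-fold for replication, 2.89-fold for chromatin and 3.91-fold for repair genes.

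Mki67 encodes Ki-67, the protein that pathologists stain to count cycling cells. It was measured at 3770.3, 2612 and 2539 in the combination mice, 4608, 779.5 and 3495 in the anti-PDL1 mice, 1214, 57.7 and 2327 in the anti-CTLA4 mice and 2521, 2152 and 1251 in the IgG mice. The anti-CTLA4 group held 1 mouse at the level of the negative control probes, 1 just below the lowest IgG mouse and 1 among the IgG mice. All combination mice were above all IgG mice, the lowest of them only just. The value of 57.7 in anti-CTLA4 mouse 2 rested on 22 recovered counts, for which counting error alone gives 36.2 to 87.4 normalized counts (95% exact Poisson interval). The highest negative control probe of that library also had 22 counts, so the listed value is an upper limit and lay at least 34.2-fold below the IgG mean. Against IgG, Mki67 had a log2 fold change of 0.63 (SE 1.22) for the combination, 0.30 for anti-PDL1 and -1.78 for anti-CTLA4, with limma adjusted p of 0.926, 0.934 and 0.368.

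Anln, which encodes the cleavage-furrow protein anillin, was at 337, 156 and 243 in the combination mice, 343, 63.0 and 293 in the anti-PDL1 mice, 80.9, 20 and 164 in the anti-CTLA4 mice and 201, 223 and 127 in the IgG mice. It was low in anti-CTLA4 mouse 1, not above the highest negative probe in anti-PDL1 mouse 2 and listed at the floor in anti-CTLA4 mouse 2, and the groups overlapped in every comparison. Its log2 fold change was 0.39 for the combination, 0.05 for anti-PDL1 and -1.45 for anti-CTLA4 (limma adjusted p 0.937, 1 and 0.309).

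Ccnb1 encodes cyclin B1, which drives entry into mitosis with its kinase. It was at 95.4, 59.2 and 131 in the combination mice, 114, 20 and 79.9 in the anti-PDL1 mice, 98.9, 20 and 145 in the anti-CTLA4 mice and 207, 193 and 268 in the IgG mice. All 9 antibody-treated mice were below the lowest IgG mouse, with anti-PDL1 mouse 2 and anti-CTLA4 mouse 2 listed at the floor. The log2 fold change was -1.28 (SE 0.80) for the combination, -1.93 for anti-PDL1 and -1.72 for anti-CTLA4, and -1.59 for anti-PDL1 and -1.27 for anti-CTLA4 with floor values raised to the limit of their library. None passed the limma test, with adjusted p of 0.528, 0.241 and 0.248.

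Birc5, which encodes the anti-apoptotic and spindle-checkpoint protein survivin and is named here after its values were seen, was the other member below IgG in all treated mice. It was at 5942, 4206 and 6147 in the combination mice, 5902, 427 and 5038 in the anti-PDL1 mice, 3383, 171 and 6692 in the anti-CTLA4 mice and 7809, 7693 and 10248 in the IgG mice. The levels in anti-CTLA4 mouse 2 and anti-PDL1 mouse 2 were 50.3-fold and 20.1-fold below the IgG mean, and the other treated mice were between those and the lowest IgG mouse. The limma adjusted p was 0.934 for the combination, 0.503 for anti-PDL1 and 0.308 for anti-CTLA4.

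A further pair of mitotic genes, named after their values were seen, shows how far the low mice departed. Ube2c, the ubiquitin-conjugating enzyme of the anaphase-promoting complex, was at 5581, 2565 and 4157 in the combination mice, 6185, 416 and 4007 in the anti-PDL1 mice, 1245, 134 and 4541 in the anti-CTLA4 mice and 4230.3, 4245 and 4509.8 in the IgG mice. Cdc20, an activator of that complex, was at 1272, 828 and 1291 in the combination mice, 1155, 130.3 and 1061 in the anti-PDL1 mice, 375, 20 and 1008 in the anti-CTLA4 mice and 993, 901 and 1174 in the IgG mice. Against the IgG mean, anti-CTLA4 mouse 2 was 32.3-fold lower in Ube2c and at least 17.7-fold lower in Cdc20, the bound taking the highest negative probe of that library. The IgG mice lay close together in both genes. The other mitotic genes were Cdc25c, a phosphatase that activates the cyclin B kinase (20 to 276 over the 12 mice), Cenpf (78.7 to 467), Cep55, which acts in the final cut between daughter cells (20 to 350.1), Kif2c, a kinesin that trims microtubules (20 to 514), and the kinase Melk (20 to 437). Each had its lowest value in anti-CTLA4 mouse 2, with anti-PDL1 mouse 2 also at the floor in Cdc25c and Melk, and the smallest limma adjusted p among them against IgG was 0.306, for Cep55 under anti-CTLA4.

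**Figure D3:**
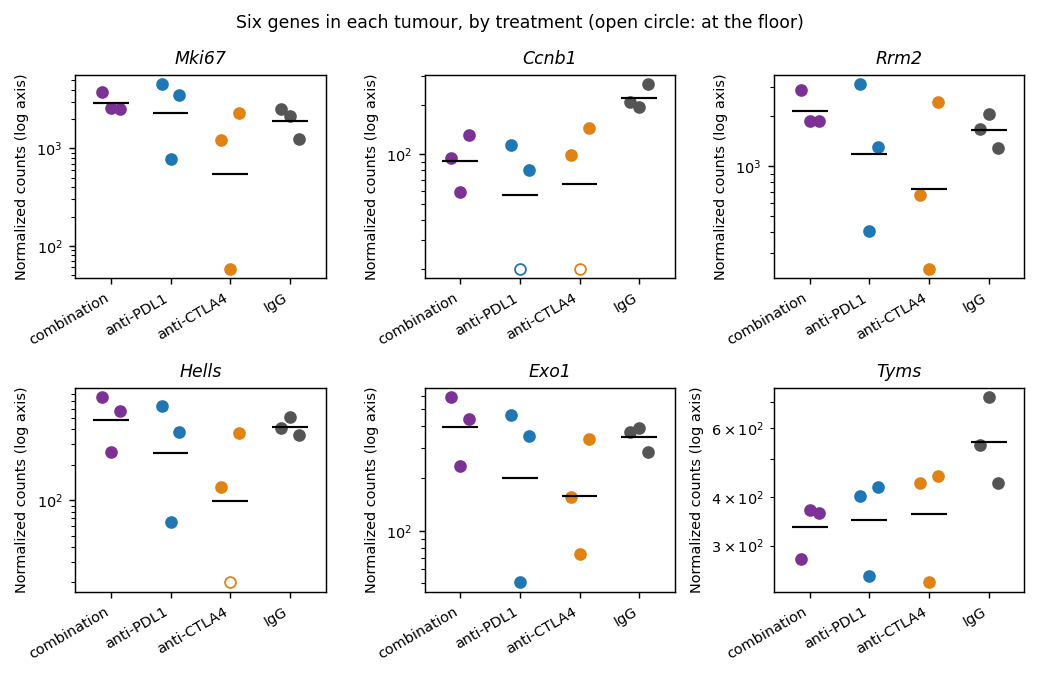
Normalized counts (log axis) of Mki67, Ccnb1, Rrm2, Hells, Exo1 and Tyms in each mouse, by group, with a line at the geometric mean of the 3 mice and an open circle for a value listed at the floor of 20; Mki67 in anti-CTLA4 mouse 2 and Exo1 in anti-PDL1 mouse 2 are not above the highest negative probe. Within the anti-PDL1 and the anti-CTLA4 groups 1 mouse lies far below the other 2 in most panels, and in Ccnb1 all 9 treated mice lie below the IgG mice.

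Genes of S-phase entry and replication were more even, apart from Ccne1 and Rrm2. Rrm2, the regulated subunit of the ribonucleotide reductase that makes deoxynucleotides, was at 2888, 1882 and 1878 in the combination mice, 3153, 408 and 1316 in the anti-PDL1 mice, 668, 239 and 2461 in the anti-CTLA4 mice and 1675, 2077 and 1295 in the IgG mice. It was low in anti-PDL1 mouse 2 and in anti-CTLA4 mice 1 and 2, and the other 6 treated mice were within or above the IgG range. Its log2 fold change was 0.39 for the combination, -0.47 for anti-PDL1 and -1.17 for anti-CTLA4 (limma adjusted p 0.945, 0.815 and 0.387).

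Cdk2, the kinase partner of cyclins E and A, had the narrowest span of the members above the floor in all libraries, 0.95 log2 units. It was at 351, 450.0 and 414 in the combination mice, 432, 324 and 423 in the anti-PDL1 mice, 454, 446 and 462 in the anti-CTLA4 mice and 473, 436 and 625 in the IgG mice. All 3 anti-PDL1 mice were below all 3 IgG mice, and the combination and anti-CTLA4 mice overlapped with IgG. Cdk2 had a log2 fold change of -0.33 (SE 0.19) for the combination, -0.37 for anti-PDL1 and -0.15 for anti-CTLA4, with limma adjusted p of 0.463, 0.337 and 0.588.

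Tyms, thymidylate synthase, which makes the thymidine nucleotide, was at 277, 371 and 363 in the combination mice, 402, 250.0 and 423 in the anti-PDL1 mice, 434, 241 and 452 in the anti-CTLA4 mice and 542, 720.3 and 435 in the IgG mice. Combination and anti-PDL1 mice were all below the lowest IgG mouse, and anti-CTLA4 mice overlapped with IgG by 1 mouse. Tyms differed from IgG by -0.73 log2 units (SE 0.32) in the combination, -0.66 in anti-PDL1 and -0.61 in anti-CTLA4, and the limma adjusted p was 0.314, 0.303 and 0.282.

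E2f3, a transcription factor that switches on S-phase genes, was at 223, 142 and 247 in the combination mice, 238, 122 and 144 in the anti-PDL1 mice, 126, 115 and 300.5 in the anti-CTLA4 mice and 249.9, 273 and 342 in the IgG mice. It separated from IgG in the combination and anti-PDL1 mice, which were all lower, and anti-CTLA4 mouse 3 lay among the IgG mice. Its log2 fold change was -0.52 for the combination, -0.82 for anti-PDL1 and -0.80 for anti-CTLA4 (limma adjusted p 0.641, 0.339 and 0.282). Pold1, the catalytic subunit of a replicative DNA polymerase, and Ccne1, which encodes cyclin E1, ranged over 152 to 488 and over 124 to 1527 normalized counts, with smallest limma adjusted p of 0.712 and 0.623 against IgG.

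Among the chromatin genes, Hells, a helicase needed for DNA methylation of repeats, varied most. It was at 751, 258 and 576 in the combination mice, 636, 65.1 and 382 in the anti-PDL1 mice, 130.4, 20 and 373 in the anti-CTLA4 mice and 406, 513 and 359 in the IgG mice. Anti-CTLA4 mouse 2 was at the floor, anti-PDL1 mouse 2 and anti-CTLA4 mouse 1 were low, and combination mouse 2 was also below every IgG mouse. Combination mice 1 and 3 and anti-PDL1 mouse 1 were above every IgG mouse. Hells had a log2 fold change of 0.19 for the combination, -0.74 for anti-PDL1 and -2.06 for anti-CTLA4 (limma adjusted p 1, 0.736 and 0.286).

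Dnmt1, the methyltransferase that copies DNA methylation to the new strand, was at 561, 301 and 477 in the combination mice, 561, 119.8 and 389 in the anti-PDL1 mice, 179.8, 99.7 and 410.0 in the anti-CTLA4 mice and 331, 337 and 382 in the IgG mice. Ezh2, the methyltransferase of Polycomb repressive complex 2, was at 774, 627 and 613 in the combination mice, 838, 282 and 615 in the anti-PDL1 mice, 371, 302 and 747 in the anti-CTLA4 mice and 509, 502 and 406 in the IgG mice. In Ezh2 all combination mice were above all IgG mice, and in Dnmt1 combination mouse 2 was below them. Against IgG the combination differed by 0.31 log2 units in Dnmt1 and by 0.51 in Ezh2, with limma adjusted p of 0.935 and 0.66. With the hepatocyte mean as a covariate those values were 0.73 (adjusted p 0.0417) and 0.77 (adjusted p 0.0425), and the same fit called 6.49% of the panel. Wdr76, a WD-repeat protein, ranged over 134 to 399 and had a smallest adjusted p of 0.405 against IgG.

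In DNA repair, Exo1, the exonuclease that trims DNA ends in mismatch and homologous repair, was at 588, 235 and 443 in the combination mice, 462, 50.4 and 352 in the anti-PDL1 mice, 157, 73.5 and 338 in the anti-CTLA4 mice and 368, 390.2 and 286 in the IgG mice. Blm, the helicase that is mutated in Bloom syndrome in humans, was at 453, 188 and 334 in the combination mice, 417, 103 and 290.3 in the anti-PDL1 mice, 157, 81.4 and 309 in the anti-CTLA4 mice and 322, 402 and 268 in the IgG mice. Both were low in anti-PDL1 mouse 2 and anti-CTLA4 mice 1 and 2, and combination mouse 2 was also below every IgG mouse in both. In both genes the 3 groups of treated mice overlapped with IgG. In anti-PDL1 mouse 2 Exo1 had 24 recovered counts, below the 30 counts of the highest negative probe there, so its level is known only as an upper limit. Exo1 differed from IgG by 0.19 log2 units in the combination, -0.77 in anti-PDL1 and -1.12 in anti-CTLA4 (limma adjusted p 0.993, 0.65 and 0.381). Blm differed by -0.09 in the combination, -0.49 in anti-PDL1 and -1.04 in anti-CTLA4 (limma adjusted p 1, 0.686 and 0.318).

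H2afx, now named H2ax, encodes the histone variant that is phosphorylated beside DNA breaks. It was at 4494, 2375 and 4248 in the combination mice, 4234, 901 and 3187 in the anti-PDL1 mice, 2779, 850.4 and 4506 in the anti-CTLA4 mice and 4747, 4329.6 and 5489 in the IgG mice. All anti-PDL1 mice were below all IgG mice, and 1 mouse each of the combination and anti-CTLA4 groups was inside the IgG range. H2afx had a log2 fold change of -0.44 for the combination, -1.07 for anti-PDL1 and -1.13 for anti-CTLA4 (limma adjusted p 0.87, 0.458 and 0.333).

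Fanca, part of the Fanconi anaemia core complex for crosslink repair, had the smallest p of the members in the test for any difference among the 4 groups, but it sat at the limit of detection. It was at 20, 20 and 23.7 in the combination mice, 28.2, 20 and 20 in the anti-PDL1 mice, 20, 20 and 20 in the anti-CTLA4 mice and 39.5, 27.6 and 25.4 in the IgG mice. It was listed at the floor in 7 treated libraries and in no IgG library. In anti-PDL1 mouse 2 and anti-CTLA4 mice 1 and 2 the floor limit was 42.0, 45.0 and 52.5 normalized counts, above every IgG value, so the order of groups is not settled for this gene. Its listed values gave limma adjusted p of 0.198 for the combination, 0.241 for anti-PDL1 and 0.151 for anti-CTLA4 against IgG, and with floor values raised to their limits the log2 differences were -0.23 for the combination, 0.03 for anti-PDL1 and 0.25 for anti-CTLA4. Of the remaining repair genes, Brca1, which directs breaks to homologous repair, ranged over 91.9 to 453, Brca2, which acts in homologous repair, over 111 to 353, and Brip1, a helicase partner of Brca1, over 102 to 307. Ube2t, the ubiquitin-conjugating enzyme of the Fanconi pathway, ranged over 60.4 to 491 and Msh6, which recognises mismatches, over 391 to 1092. The smallest limma adjusted p of these 5 against IgG was 0.335, for Brca1 under anti-CTLA4.

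The question of the series is how these tumours respond to either antibody and to both. For the combination against IgG, 0 of the 30 genes passed an adjusted p of 0.05 in limma, where 2.86% of the panel did, and 2 of 30 had an unadjusted p under 0.05, where 15.5% of the panel did. The log2 fold change was positive for 16 and negative for 14 genes, with a median of 0.055 against 0.03 over all panel genes. With the hepatocyte mean as a covariate the median was 0.47, and 2 of 30 (Dnmt1 and Ezh2) passed, where 6.49% of the panel did. By role the medians were -0.15 for mitosis, 0.03 for replication, 0.25 for chromatin and -0.09 for repair. In 5 of 30 genes (16.7%: Mki67, Melk, Pold1, Ezh2 and Msh6) every combination mouse was above every IgG mouse, against 22.7% of the panel, and in 6 of 30 (20%: Birc5, Ccnb1, Cep55, E2f3, Tyms and, by its listed values only, Fanca) every one was below, against 13.2% of the panel.

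For anti-PDL1 against IgG, 0 of 30 passed, where 2.99% of the panel did, and 2 of 30 had an unadjusted p under 0.05, where 19% of the panel did. The log2 fold change was positive for 6 and negative for 24, with a median of -0.49 against 0.07 over the panel. Without anti-PDL1 mouse 2 that median turned to 0.21, and with the hepatocyte mean as a covariate it was 0.27 (0 of 30 called, 8.05% of the panel). No gene had every anti-PDL1 mouse above every IgG mouse, against 13% of the panel, and 6 (Birc5, Ccnb1, Cdk2, E2f3, Tyms and H2afx) had every one below, against 13.1%.

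For anti-CTLA4 against IgG, 0 of 30 passed, where 2.6% of the panel did, and 1 of 30 (Fanca) had an unadjusted p under 0.05, where 21.4% of the panel did. All 30 log2 fold changes were negative, with a median of -1.04, or -1.02 with floor values at their limits, against 0.17 over the panel. The medians by role were -1.72 for mitosis, -0.67 for replication, -0.69 for chromatin and -0.97 for repair. Anti-CTLA4 mouse 3, whose hepatocyte mean and scaling factor were within the IgG range, had 3 of the 30 genes below and 12 above every IgG mouse, against 30% and 31.4% of the panel. The median was -0.45 without anti-CTLA4 mouse 2 and -0.04 with the hepatocyte mean as a covariate (0 of 30 called, 1.56% of the panel). Every anti-CTLA4 mouse was below every IgG mouse in 3 genes (Birc5, Ccnb1 and Fanca, the last by its listed values only), against 11% of the panel, and above in none, against 19%. Fits limited to the groups compared also called 0 of 30 in each comparison with IgG, where they called 6.23% of the panel for the combination, 1.04% for anti-PDL1 and 1.3% for anti-CTLA4.

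**Figure D4:**
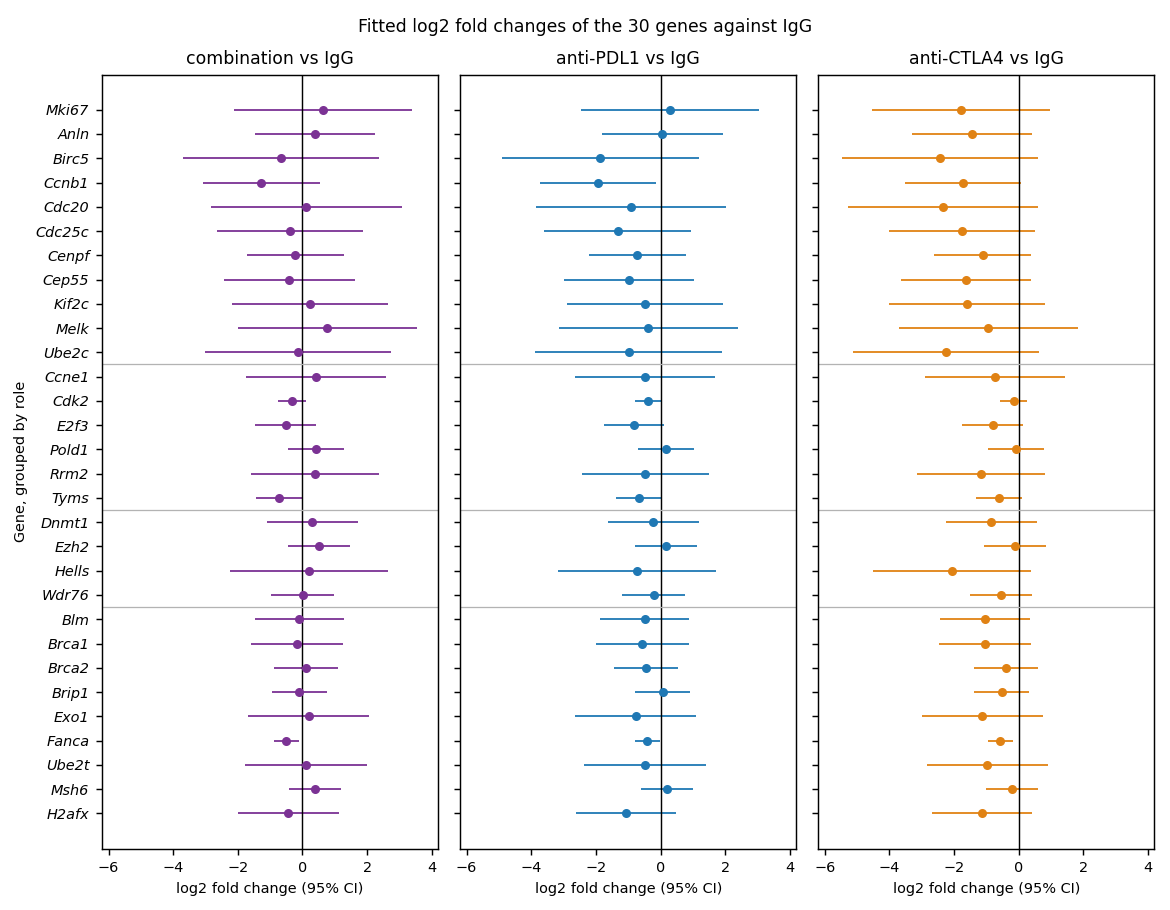
Log2 fold change against IgG with its 95% confidence interval for each of the 30 genes, in the combination, anti-PDL1 and anti-CTLA4 comparisons. Points for anti-CTLA4 all lie left of 0, and the intervals of the mitotic genes are wide.

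The intervals leave room for large differences. The median width to either side of a member's fold change was 1.68 log2 units for a 95% interval, against 0.91 for all panel genes. These 3 comparisons share the IgG mice, and their values are therefore not independent.

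The combination and the single antibodies were also set against each other. Against anti-PDL1, 0 of 30 genes passed, as did 0% of the panel, and 0 of 30 had an unadjusted p under 0.05 in limma, where 0.649% of the panel did; 27 of 30 were higher in the combination, with a median of 0.55, or 0.52 with floor values at their limits. That median was -0.15 without anti-PDL1 mouse 2, and the groups overlapped in all 30 genes, where 1.43% of the panel was higher and 0.779% lower in every combination mouse. Against anti-CTLA4, 0 of 30 passed, as did 0% of the panel, and 0 of 30 had an unadjusted p under 0.05 in limma, where 4.29% of the panel did; 28 of 30 were higher, with a median of 1.01, or 0.91 at the limits. Without anti-CTLA4 mouse 2 it was 0.33. Mki67, Melk and Msh6 had every combination mouse above every anti-CTLA4 mouse, 3 of 30 against 2.47% of the panel, and 0 of 30 had every one below, against 3.25%.

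The interaction measures how far the combination lies from adding up the log2 changes of both single antibodies. It was positive for all 30 genes, with a median of 1.62 (1.496 at the limits) against -0.18 over the panel. None of the 30 passed the test, where 1.3% of the panel did, and 0 of 30 had an unadjusted p under 0.05, where 13.8% of the panel did; the smallest limma adjusted p was 0.368. Its median was 0.87 without anti-PDL1 mouse 2 and 0.19 with the hepatocyte mean as a covariate, a fit that called 0 of 30 and 0.779% of the panel. The test for any difference among the 4 groups called 0 of 30, where it called 1.95% of the panel.

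Across the 12 mice the genes moved together. Over all libraries 19 of the 30 had a Pearson correlation above 0.9 with the mean of the other 29 genes, and 9 of 30 without anti-CTLA4 mouse 2 and anti-PDL1 mouse 2. Of 498 other panel genes above the floor in all libraries, 14 correlated above 0.9 with the mean of the 30 and 60 below -0.9. Ube2c and Cenpf, which encodes a kinetochore protein, were highest at 0.99 each. Cdk2 at 0.23, Fanca at 0.40, Tyms at 0.62 and E2f3 at 0.74 were lowest. Ccnb1 stood at 0.84 and fell to 0.23 without those libraries, and Mki67 at 0.89 and 0.66. These correlations are a description of 12 libraries that share tumour make-up and scaling.

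With the mean of all 30 genes taken into the model, an alternative chosen after the data were seen, Ccnb1 differed from IgG by -1.25 log2 units in the combination (SE 0.26, limma adjusted p 0.0436) and by -1.32 in anti-PDL1 mice (SE 0.27, adjusted p 0.0359). It was the 1 member called in each, and the fits called 6.75% and 5.58% of the panel. Both calls ended when a common floor was set at the highest limit (adjusted p 0.0737 and 0.0876). For anti-CTLA4 the value of Ccnb1 was -0.52 (limma adjusted p 0.484), with 0 of 30 members and 1.69% of the panel called. Over all 9 treated mice, 2 of 30 members (6.67%, Ccnb1 and Birc5) were below every IgG mouse, against 5.84% of the panel, and 0 were above, against 8.05%.

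Among the 498 other panel genes above the floor in all libraries, those most like the mean of the 30 included G6pdx (Pearson correlation 0.97), Ppl (0.96), Tfrc (0.96) and Hmga1 (0.95). G6pdx, the first enzyme of the pentose phosphate pathway, was at 1549, 1129 and 1449 in the combination mice, 1569, 403 and 1060.2 in the anti-PDL1 mice, 683, 273 and 1858 in the anti-CTLA4 mice and 1640.4, 1454 and 1886 in the IgG mice. Its Spearman correlation was 0.69, and the Pearson value without anti-CTLA4 mouse 2 and anti-PDL1 mouse 2 was 0.82. Tfrc, the transferrin receptor, stood at 0.97 without them. The most opposite were Deptor at -0.97 and Chuk, Tmub2, Rela and Hdac11 at -0.96 each. Deptor, an inhibitor of the mTOR kinase, was at 635, 1233 and 659 in the combination mice, 679.9, 2689 and 869.5 in the anti-PDL1 mice, 1897, 3908 and 811 in the anti-CTLA4 mice and 1047, 982 and 947 in the IgG mice. Its order of mice ran against that of the 30 genes, with anti-CTLA4 mouse 2 and anti-PDL1 mouse 2 highest. G6pdx, Tfrc and Tmub2 were also on a list of housekeeping genes, 20 of them measured, that served for an alternative scaling. The mean log2 level of that list lay between 9.08 and 9.17 in every library. What the movement of these genes means for the scaling was not tested.

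Of 112 other cell cycle and repair genes listed, 25 were measured, and 0 of these passed in any of the 6 comparisons, while 2, 5 and 6 of 25 had an unadjusted p under 0.05 in limma for the combination, anti-PDL1 and anti-CTLA4 against IgG, where 15.5%, 19% and 21.4% of the panel did. Their mean log2 level spanned 8.15 to 8.24 in the combination, 8.05 to 8.22 in anti-PDL1, 7.91 to 8.15 in anti-CTLA4 and 8.08 to 8.12 in IgG mice, a far smaller range than that of the 30 genes. The smallest p for any difference among the groups belonged to Nbn, which encodes a subunit of the complex that senses DNA breaks, to Cdkn2a, which encodes inhibitors of the cell cycle, and to Ercc3, a helicase of nucleotide excision repair. Nbn was at 507, 620.3 and 394 in the combination mice, 558, 702 and 469.8 in the anti-PDL1 mice, 546, 698 and 504 in the anti-CTLA4 mice and 376, 376 and 294 in the IgG mice. Its log2 fold change against IgG was 0.52 for the combination, 0.71 for anti-PDL1 and 0.73 for anti-CTLA4, with limma adjusted p of 0.318, 0.136 and 0.158.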

How the data were processed

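The authors deposited normalized barcode counts (unit: signal) for 770 genes and 14 unscaled control probes in 12 libraries, 1 per mouse, grouped by sample title; software and normalization method are not stated in the sources used. From the deposited values 1 factor per library was recovered: at least 99.84% of values above the floor of 20 were whole multiples of 1 step within 0.0075. Intervals cover counting error only.

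Tests used limma 3.58.1 (R 4.3.3) on log2 of the deposited value plus 1 (mean-variance trend, 1 mean per group over the 4 groups), two-sided, with Benjamini-Hochberg adjustment over 770 genes and a threshold of 0.05. Count tests had been planned and were left out, since scaled values with a floor cannot enter them. Fit and factor search were checked on simulated data. The members, lists and tests were chosen with earlier results of these data known.

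Values in every mouse are given for Mki67 and, in each role, for the 3 members with the smallest p over the 4 groups and the 1 with the widest span. Of 30 symbols, 29 matched the RefSeq table of GRCm38.p6 as symbols and 1 as a synonym. Some genes that the rules select outside the members are not reported here. Alternatives were another filter, pseudocount, scaling, spread model, library weights, only the groups compared, a replicate block, each library left out, and a hepatocyte covariate. Added after the data were seen were a common floor, only libraries with a low factor, and the member mean as covariate.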

Additional observations from a re-analysis of the deposited data

How the results depend on the processing

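Each of the 6 comparisons and the test over 4 groups called 0 of 30 members under the other filter, pseudocount, scalings, spread model and common floor, with only the groups compared, and with any 1 library left out. Library weights, for which the weight estimate did not converge (weights 0.12 to 9.87), called 2 members for the combination, 3 for anti-PDL1 and 17 for anti-CTLA4 against IgG, where it called 24.7%, 36.6% and 46.9% of the panel. It called 17 for the combination against anti-CTLA4 (32.5% of the panel), 15 for the interaction (43.8%) and 17 over the 4 groups (65.7%). The hepatocyte covariate called 2 (Dnmt1 and Ezh2) for the combination, and the member mean as covariate 1 (Ccnb1) for the combination and 1 (Ccnb1) for anti-PDL1. The cause was not tested. A filter at 50 in 3 libraries left 606 genes and called 0 of the panel against IgG in place of 22, 23 and 20, and a common floor called 2 in each.

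The median log2 fold change for anti-CTLA4 against IgG was -0.036 with the hepatocyte covariate, -0.0733 with the member mean, -0.0453 with the member mean and a common floor, and 0.0712 over low factor libraries only. For the combination against anti-CTLA4 it was -0.0528, -0.0205 and -0.0391 with the member mean, the member mean and common floor, and low factor libraries. For the interaction it was 0.19 with the hepatocyte covariate, and 0.0644, 0.0465 and -0.26 in that order. Low factor libraries were those with a factor no higher than the highest IgG factor. Of the treated mice they kept only anti-CTLA4 mouse 3, anti-PDL1 mouse 1 and combination mice 1 and 3. The low factor values therefore rest on a single mouse in each single-antibody group. A fit that holds the member mean removes shared movement of the members by construction. Median scaling shifted the all-gene median for the combination to -0.38, with the members at -0.36; for anti-PDL1 to -0.28 with -0.84, and for anti-CTLA4 to -0.19 with -1.39.

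With 1 library left out, no member was called and the member median ranged from -0.11 to 0.21 for the combination, -1.04 to 0.21 for anti-PDL1, -1.63 to -0.45 for anti-CTLA4, -0.15 to 0.98 for the combination against anti-PDL1, 0.33 to 1.55 against anti-CTLA4, and 0.87 to 2.23 for the interaction. Of 2164 recomputed fold changes of the named members, 36 passed the threshold and 146 turned sign, none of these past the threshold in either fit (smallest adjusted p 0.129). Signs turned most often over low factor libraries (34), with the member mean as covariate (18, and 18 with the common floor), without anti-PDL1 mouse 2 (16) and with the hepatocyte covariate (15). The low factor fit kept a single mouse in each single-antibody group. Mki67 under anti-CTLA4, at -1.78, was 0.02 with the member mean. Over low factor libraries, where anti-CTLA4 mouse 3 stood alone for its group, Mki67 was at 0.30.

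Whether the replicate numbers pair the mice was not settled. Same-numbered libraries correlated at -0.43 to 0.73, 9 of 18 above 0.1, with a median of 0.13 against -0.05 for other numbers. Of 12 libraries, 6 correlated best with one of their own number. Treated libraries numbered 2 correlated with each other at 0.73, 0.66 and 0.57, and with IgG mouse 2 at -0.16, -0.14 and -0.22. In each treated group mouse 2 had the lowest mean of the 30 genes and the highest scaling factor. Among IgG mice it had the highest mean and the lowest factor. What the numbers stand for was not tested. With the replicate block 0 members were called. The medians against IgG stayed at 0.055, -0.49 and -1.04, which a block with every number in every group cannot change. Members with an unadjusted limma p under 0.05 numbered 2, 3 and 6 against IgG with the block, and 2, 2 and 1 without. For the combination against anti-CTLA4 and for the interaction they numbered 5 each with the block, and 0 without. The panel share at that cut was not taken with the block. The panel count past the adjusted threshold for the combination against IgG was 14 with the block and 22 without. The planned count-based tests were not run. The floor, whose limit rises with the scaling factor of a library, restricts what can be said of Fanca and of every member listed at it.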

Other observations

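Other genes of the cell cycle, chosen here after their values were seen, ran against the 30 genes or lay near the floor. Ccnd1, which encodes cyclin D1, was at 615, 1497 and 681 in the combination mice, 492, 2895 and 840.0 in the anti-PDL1 mice, 2783, 4367 and 957 in the anti-CTLA4 mice and 932, 436 and 592 in the IgG mice. It correlated with the mean of the 30 genes at -0.91 over the 12 libraries, and Ccnd2, which encodes cyclin D2, at -0.94; both were highest in the mice with the lowest division genes. Cdkn2a was at 44.0, 20 and 37.5 in the combination mice, 23.0, 20 and 20 in the anti-PDL1 mice, 20, 20 and 26.2 in the anti-CTLA4 mice and 37.1, 66.3 and 29.8 in the IgG mice. It was listed at the floor in 5 libraries, among them anti-PDL1 mice 2 and 3 and anti-CTLA4 mice 1 and 2.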
